A study of Homo sapiens with 12 samples.

Results

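The genes described here are 51 developmental transcription factors that belong to the classes of gene bound and silenced by Polycomb proteins in many cell types. They were picked by name, without HOX, PAX, SOX and several other families, and all 51 were present among the 57169 genes of the count table. RNA was measured in 12 libraries from xenograft tumours of SK-ES1 cells, a long-used line of Ewing sarcoma: 6 with RING1B knock-down and 6 control libraries that the labels call wild-type. The labels name no silencing construct, control construct, host species or age, so the controls may or may not carry a construct. The Polycomb mark itself was not measured in these libraries, and "Polycomb-marked" is background knowledge about the genes.

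RING1B, encoded by RNF2, is a ubiquitin ligase of Polycomb repressive complex 1 and places ubiquitin on histone H2A. Together with Polycomb repressive complex 2, which methylates histone H3 at lysine 27, the complex keeps developmental regulators low in cells outside the lineage that uses them. Ewing sarcoma cells carry the fusion factor EWSR1-FLI1 and have no agreed normal counterpart, with neural crest and mesenchymal progenitors both discussed as their origin. The levels below therefore ask which lineage factors were transcribed in these tumours and whether lower RNF2 came with a change.

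Every knock-down library held less RNF2 than every control. The level was 17.7 ± 4.56 CPM in knock-down and 47.6 ± 8.43 CPM in control (SD, n = 6 each, log2 fold change −1.43, SE 0.174, edgeR adjusted p = 0.00347). CPM are counts scaled to a common library total. Total counts lay between 23859184 and 26678325 per library, so that 3 counts, the floor used for a gene at 0, equal 0.109 to 0.127 CPM. Genes listed as host markers summed to low levels for endothelium and leukocytes. Endothelial markers summed to 16.9 to 26.9 CPM in knock-down and 16.6 to 26.8 CPM in control, with 4 of 7 below 1 CPM. Leukocyte markers summed to 7.20 to 32.4 CPM in knock-down and 5.63 to 24.9 CPM in control, with 5 of 8 below 1 CPM. Fibroblast and pericyte markers summed to 403 to 1597 CPM in knock-down and 563 to 1575 CPM in control. Whether host or tumour cells gave the counts of these markers was not tested. Of 8 Ewing sarcoma markers, CD99 was at 0 counts in every library, and the 8 summed to 1897 to 2159 CPM in knock-down and 1792 to 2006 CPM in control. Absent CD99 RNA cannot be told apart here from reads lost in counting, as the handling of multiply aligned reads is not given. Knockdown 4 stood apart: 158 genes of at least 1 CPM there were at least 5-fold above all 11 other libraries, against 0 to 6 such genes in each of the others. Its host marker mean was also the highest, at 2.43 log2 CPM, with 2.29 in control 5, 2.12 in control 6 and 1.14 to 1.81 in the rest.

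Of the 51 factors 29 had a mean of at least 1 CPM in control tumours, and the rest lay between 0 and 0.983 CPM. By a level rule on the control libraries, 22 of 51 were high (a mean of at least 10 CPM), 7 were on (1 to 10 CPM), 12 were low (below 1 CPM) and 10 were silent (at most 3 counts in each control). By the roles assigned here, the 29 genes on or high included factors of neural crest and limb, neurons, heart, endoderm and blood. For the counts by group below, each factor was placed in a single group by role, an assignment made here. Several factors act in more than 1 tissue, so these counts and the spread over lineages depend on that sorting. In bulk tumours fewer cells that transcribe a gene and less RNA per cell cannot be told apart.

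Of the factors of neural crest, face, limb and body axis, the largest group, 12 of 13 were on or high. ALX4, a homeobox factor of skull and limb, had the highest mean of all 51, and its relative ALX1 of the frontonasal skeleton was high too. FOXD3, a factor of premigratory neural crest, DLX2, DLX5 and DLX6 of the branchial arches and limb, PITX1 of the hindlimb and the HOX cofactors MEIS1 and MEIS2 were all above 10 CPM. FOXC1, DLX1 and EVX2 were on at 1 to 10 CPM. The exception was EVX1, the even-skipped homologue at the end of the HOXA cluster, with 0 counts in 6 of 6 knock-down libraries and at most 2 counts in any control.

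Neuronal factors lay on both sides, with 7 of 12 on or high and 5 low or silent. The subtype factors POU3F2, POU4F1, ISL1 and NKX6-1 and the differentiation factor NEUROD1 were high. CERKL, on the same strand, covers 7.13% of the NEUROD1 exon bases, at 96.6 CPM in knock-down and 77.0 CPM in control. The part of CERKL reads in the NEUROD1 counts, if any, was not tested. LHX1 and LHX9 were on at 1.51 ± 0.543 and 3.74 ± 0.651 CPM in control (SD, n = 6). The proneural factor NEUROG2 was just under the limit, at 0.973 ± 0.372 CPM in knock-down and 0.970 ± 0.313 CPM in control (SD, n = 6 each). NEUROG1, also proneural, and OLIG1 of the oligodendrocyte lineage had 0 counts in all 12 libraries, and OLIG2 had at most 1. LHX2, a LIM factor of forebrain and eye, had at most 4 counts in any library.

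Of the groups as sorted here, the factors placed under regional patterning of the brain were the most often off, with 9 of 10 low or silent. OTX2 of forebrain and midbrain, GBX2 of the anterior hindbrain, EN1 and EN2 of the midbrain and hindbrain boundary, and IRX1, IRX3 and IRX5 of the Iroquois family were low, and ZIC1 and IRX2 were silent. ZIC2, a zinc finger factor of dorsal neural tissue, was the exception. Per kilobase of exon it had the highest control level of the 51, at 25.3 RPKM, and 88.5% of tested genes lay lower on that scale. GATA2, a factor of blood stem cells, followed at 19.8 RPKM, ALX4 at 18.8 RPKM and DLX5 at 18.5 RPKM.

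Heart and mesoderm factors were high in 4 of 8 (NKX2-5, TBX1, TBX3 and HAND2), low in 2 (TBX2 and WT1) and silent in 2 (TBX5 and HAND1). Among 6 endoderm factors GATA4 was high, the pioneer factor FOXA1 and the intestinal factor CDX2 were on, GATA6 was low, and FOXA2 and NKX2-1 of lung and thyroid were silent. Both blood and lymphoid factors, GATA2 and GATA3, were high.

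Some close relatives lay at different levels, while others were alike: ALX1 and ALX4, MEIS1 and MEIS2 and the DLX genes were all on or high, and EN1 and EN2, OLIG1 and OLIG2 and the IRX genes were all low or silent. How often relatives differ was not tested. FOXA2 and HAND1 had 0 counts in all 12 libraries, which allows at most 0.127 CPM in any of them, while FOXA1 was at 5.19 ± 1.08 CPM in knock-down and 7.45 ± 1.68 CPM in control, and HAND2 at 14.1 ± 2.38 CPM in knock-down and 10.7 ± 1.37 CPM in control (SD, n = 6 each). ZIC1 had at most 3 counts in any library beside ZIC2 at 91.9 ± 36.0 CPM in knock-down and 83.9 ± 14.2 CPM in control (SD, n = 6 each). EVX1 against EVX2, GATA6 against GATA2, GATA3 and GATA4, and NKX2-1 against NKX2-5 and NKX6-1 differed in the same direction. In each of these comparisons the silent or low relative had at most 5 counts in any library.

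**Figure D1:**
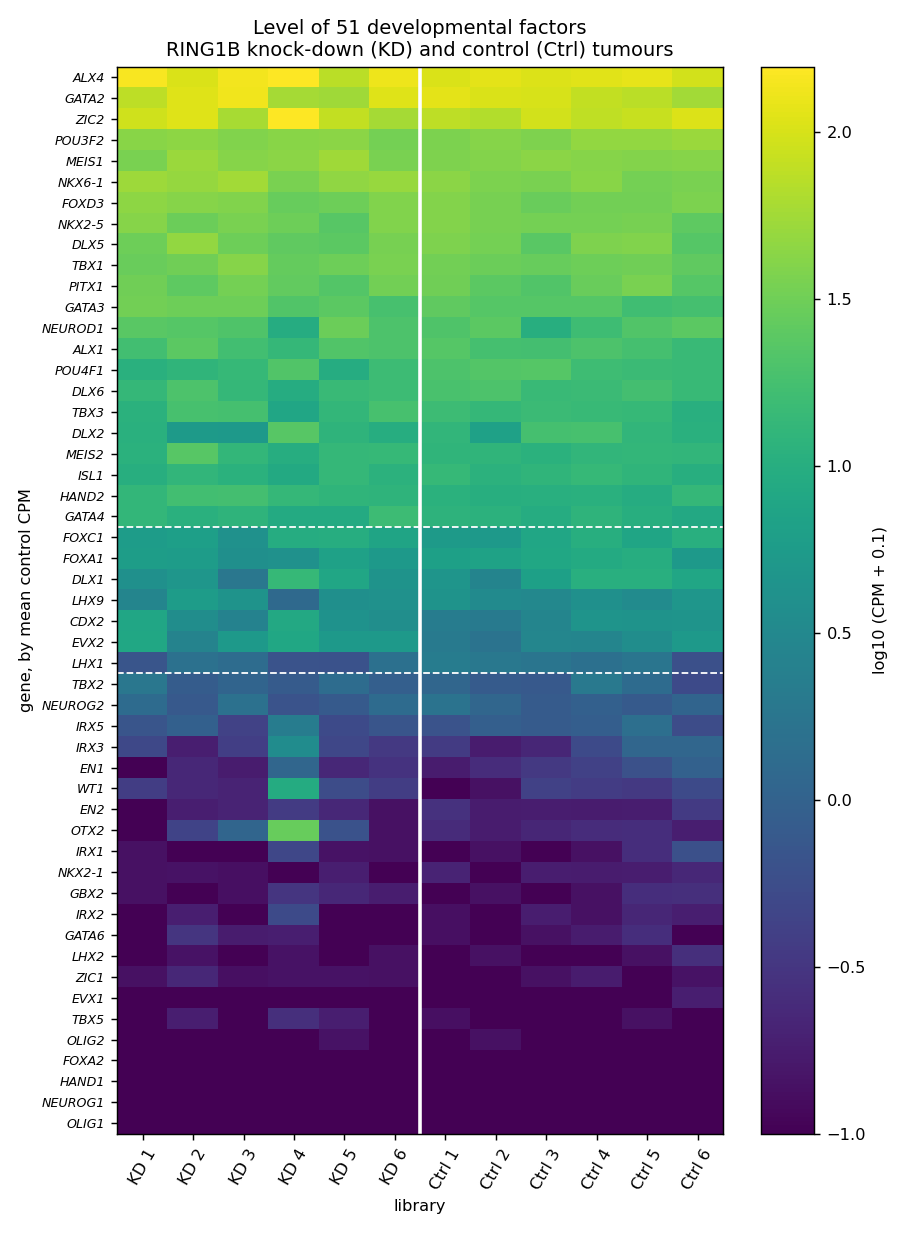
Colour shows log10 of CPM plus 0.1 for each of 51 factors (down the page, by mean control CPM) in 6 knock-down (left) and 6 control libraries (right), with dashed lines at means of 10 and 1 CPM. Levels differ far more between genes than between groups, and OTX2 and WT1 stand out from their neighbours in knockdown 4, at 28.2 and 9.17 CPM.

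The study's comparison asks what knock-down of RING1B, which left part of the RNF2 RNA in place, does to the tumour transcriptome. No factor of the 51 passed the test. Of 32 that had enough counts, edgeR's quasi-likelihood test called 0 at an adjusted p below 0.05, and 0.297% of all 16519 tested genes were called. DESeq2 called 0 of 34 (1.75% of its 19551 genes) and limma-voom 0 of 32 (0.315% of all tested genes). The 34 do not include OTX2 and WT1, to which DESeq2 gave log2 fold changes of 5.34 (SE 1.39) and 3.02 (SE 1.21) but no p-value. In no tested factor did the 2 groups lie apart without overlap, as they did in 1.22% of all tested genes. At an unadjusted edgeR p below 0.05 there were 5 of 32 factors, beside 12.7% of all tested genes, so this share was near the background.

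Log2 fold changes, knock-down over control, were positive for 20 of 32 factors and negative for 12, with a median of 0.04. Of all tested genes 8657 of 16519 were positive (52.4%), with a median of 0.01. The split shifted with the model: limma-voom gave 16 positive and 16 negative, and a host marker covariate in edgeR gave 15 positive and 17 negative. The factors ranged from −0.63 for LHX1 to 0.92 for EVX2, and their edgeR adjusted p values from 0.217 to 0.996. By group, crest and limb factors were positive in 7 of 12 tested, neuronal factors in 3 of 8, heart and mesoderm factors in 4 of 5, endoderm factors in 2 of 3, brain patterning factors in 2 of 2 and blood factors in 2 of 2.

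**Figure D2:**
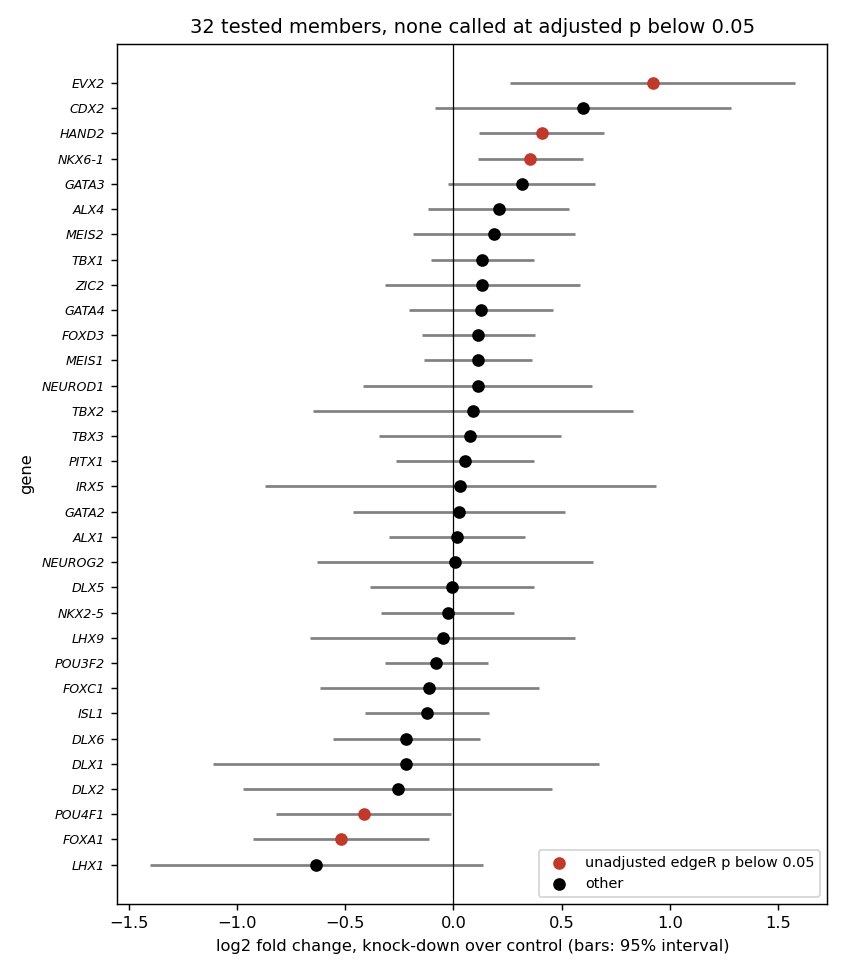
Points are edgeR log2 fold changes, knock-down over control, of the 32 tested factors, with 95% intervals as bars and red points for an unadjusted edgeR p below 0.05. Only EVX2, HAND2 and NKX6-1 on the right and FOXA1 and POU4F1 on the left are red, and 0 of 32 passed at an adjusted p below 0.05.

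EVX2, an even-skipped homeobox factor of limb and spinal cord, had the largest positive fold change of the 32 tested factors. It lies beside the HOXD cluster at chr2:176077472-176083913 (hg38, minus strand), and the 250 bases before its RefSeq start, at chr2:176083963-176084212 (GRCh38.p14, minus strand), are shown for that reason. Capitals mark CG dinucleotides, of which there are 14, and 40.3% of 15843 coding promoters hold fewer.
EVX2: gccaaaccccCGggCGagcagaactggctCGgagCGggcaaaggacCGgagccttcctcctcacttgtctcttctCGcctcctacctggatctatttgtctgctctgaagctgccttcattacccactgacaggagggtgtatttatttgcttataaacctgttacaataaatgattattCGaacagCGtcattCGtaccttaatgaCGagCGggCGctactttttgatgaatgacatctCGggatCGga
EVX2 was at 2.62, 5.20 and 8.02 CPM (lowest, median, highest) in knock-down and at 1.55, 2.81 and 5.31 CPM in control. Knockdown 1 and knockdown 4 lay above every control, while knockdown 2 was low and control 6 was high, so the groups overlapped. The means were 5.66 ± 2.01 CPM in knock-down and 2.99 ± 1.33 CPM in control (SD, n = 6 each), with a log2 fold change of 0.92 (SE 0.308, 95% interval 0.26 to 1.58, edgeR adjusted p = 0.234). Over the alternatives tried the log2 fold change stayed between 0.77 and 1.16 and the edgeR, DESeq2 or limma adjusted p between 0.0410 and 0.525. The lowest adjusted p, and the only one that passed, came with the host marker mean as a covariate (log2 fold change 1.01, edgeR adjusted p = 0.0410). The highest came with counts summed by title number, where the fold change was also smallest (log2 fold change 0.77, edgeR adjusted p = 0.525).

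HAND2, a basic helix-loop-helix factor of heart, limb and sympathetic neurons, was at 12, 13.04 and 17.4 CPM (lowest, median, highest) in knock-down and at 9.33, 10.4 and 13.3 CPM in control. Control 6 was the only control inside the knock-down range. The log2 fold change of HAND2 was 0.41 (SE 0.136, 95% interval 0.12 to 0.70, edgeR adjusted p = 0.233). The gene lies at chr4:173524969-173530229 (hg38, minus strand), and HAND2-AS1, on the opposite strand, covers 24.1% of its exon bases, at 2.61 CPM in knock-down and 2.63 CPM in control. The strand setting of the counting is not given in the sources used here. Whether reads of such antisense partners were kept apart from those of the gene is therefore not known.

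NKX6-1, a homeobox factor of motor neuron progenitors and pancreatic beta cells, had the smallest edgeR p of the 32 tested factors, while EVX2 was ahead of it by DESeq2 and limma-voom and HAND2 by the exact permutation test. It lies at chr4:84491987-84498450 (hg38, minus strand). Its levels were 36.0, 49.0 and 56.2 CPM (lowest, median, highest) in knock-down and 33.6, 36.3 and 43.1 CPM in control. Knockdown 4 was the low one, and the other 5 knock-down libraries lay above every control. The log2 fold change was 0.36 (SE 0.114, 95% interval 0.11 to 0.60, edgeR adjusted p = 0.217), and 0.43 without knockdown 4 (edgeR adjusted p = 0.0971).

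FOXA1, which opens chromatin in endoderm and hormone-responsive tissues, was lower in the mean. It lies at chr14:37589984-37596059 (hg38, minus strand) and was at 3.82, 5.37 and 6.59 CPM (lowest, median, highest) in knock-down and at 5.06, 7.27 and 9.57 CPM in control. Of the 6 controls 4 lay above every knock-down library, and control 6 was low. The log2 fold change was −0.52 (SE 0.191, 95% interval −0.93 to −0.11, edgeR adjusted p = 0.279).

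POU4F1, also called BRN3A, is a factor of sensory neurons and lies at chr13:78598362-78603560 (hg38, minus strand). Levels were 9.30, 12.98 and 21.0 CPM (lowest, median, highest) in knock-down and 14.4, 17.9 and 22.2 CPM in control. Knockdown 4 was the high one, and the groups overlapped. The log2 fold change was −0.41 (SE 0.189, 95% interval −0.82 to −0.01, edgeR adjusted p = 0.380). Its opposite-strand partner AL445209.1 covers 27.7% of its exon bases, at 0.191 CPM in knock-down and 0.157 CPM in control.

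**Figure D3:**
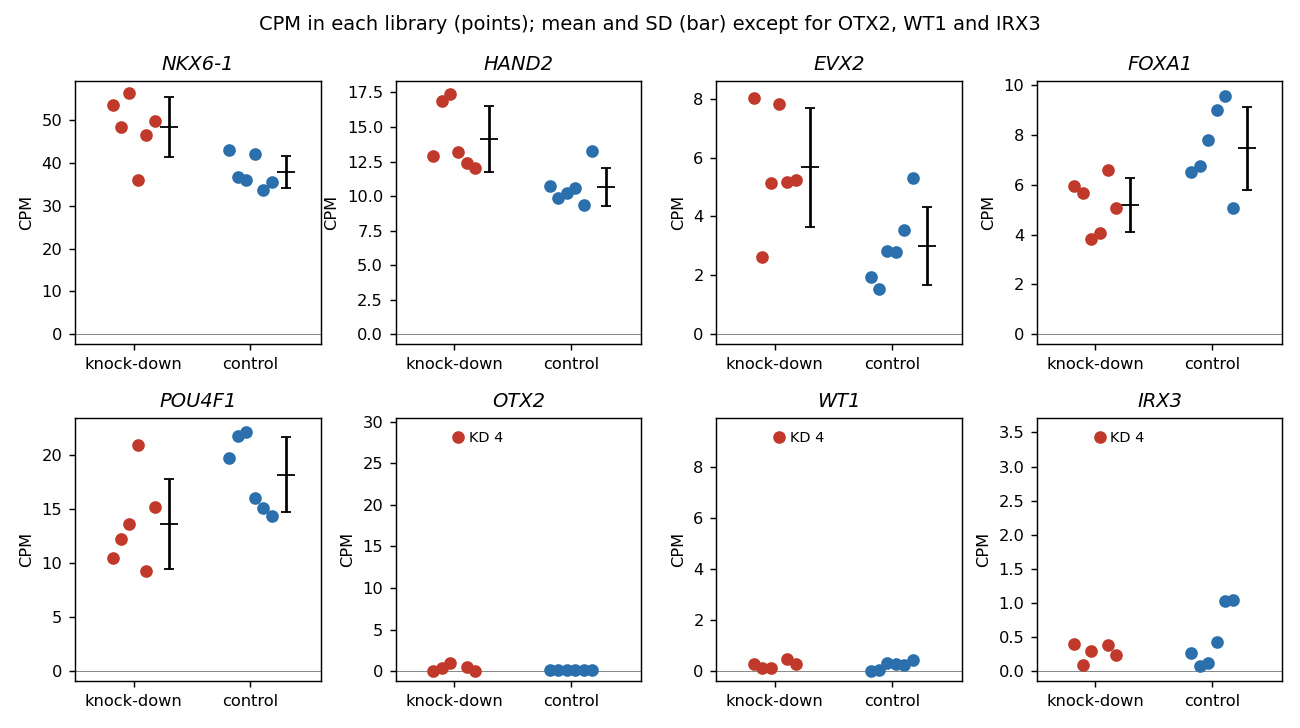
Points give CPM in each library for 8 factors, knock-down (red, left) and control (blue, right), with mean and SD as bars except for OTX2, WT1 and IRX3. The groups overlap in every panel, and the single high points of OTX2, WT1 and IRX3 are knockdown 4, at 28.2, 9.17 and 3.44 CPM.

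The factors at the highest levels varied mostly within groups. ALX4 (chr11:44260440-44310166, minus strand) was at 73.5, 134 and 157 CPM (lowest, median, highest) in knock-down and at 93.9, 109 and 118 CPM in control. The knock-down libraries lay on both sides of the control range (log2 fold change 0.21, SE 0.153, edgeR adjusted p = 0.596). GATA2 (chr3:128479427-128493185, minus strand) was at 54.1, 92.1 and 134 CPM in knock-down and at 55.8, 90.0 and 117 CPM in control, with nearly the same range in both groups. Its log2 fold change of 0.03 (SE 0.230, edgeR adjusted p = 0.977) turned negative in 10 of 24 alternatives, from −0.14 to 0.17 overall.

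ZIC2 (chr13:99981772-99986773, plus strand) was at 58.5, 85.3 and 154 CPM (lowest, median, highest) in knock-down and at 67.8, 80.2 and 106 CPM in control. The highest value was that of knockdown 4, and the log2 fold change was 0.13 with it (SE 0.211, edgeR adjusted p = 0.836) and −0.07 without it. The neural POU factor POU3F2, or BRN2 (chr6:98834592-98839470, plus strand), had the tightest interval around 0 of these 5. It was at 33.9, 42.6 and 45.4 CPM in knock-down and at 36.3, 44.4 and 51.5 CPM in control (log2 fold change −0.08, 95% interval −0.32 to 0.16, edgeR adjusted p = 0.809). MEIS1 (chr2:66433452-66573869, plus strand) was at 35.6, 42.6 and 55.4 CPM in knock-down and at 38.1, 40.5 and 43.4 CPM in control, where it varied little (log2 fold change 0.11, SE 0.117, edgeR adjusted p = 0.722).

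The factors that were silent or low in control tumours summed to control-like counts in 5 of 6 knock-down libraries. Of these 22 genes, 12 had a higher mean in knock-down, 6 a lower one and 4 had no count at all. Without knockdown 4 the 12 became 8. The 22 were chosen for low control levels, which by itself favours a higher mean in knock-down. How many of all genes chosen in this way had a higher mean was not computed, so the 12 are only a description. Summed over the 22 genes there were 1102 counts in knockdown 4 and 81 to 152 in each of the other 11 libraries, knock-down and control alike. Without OTX2 and WT1 these sums were 222 in knockdown 4 and 70 to 142 elsewhere. Knockdown 4 was the highest library for 9 of the 22 genes, and for 16.7% of all tested genes. Most of the 22 were below the filter, and the share among genes of like low level was not computed. Of the 22, 19 fell below the low-count filter of edgeR, and their exact permutation p values ran from 0.106 to 1.

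OTX2, the homeobox factor of forebrain, midbrain and retina, was the gene with the largest step. It had 0, 8, 28, 664, 13 and 1 counts in knockdown 1 to 6 and 4, 2, 3, 4, 4 and 2 counts in control 1 to 6. In CPM this was 28.2 in knockdown 4 and 1.02 in knockdown 3, which share a title number, and at most 0.542 in the other knock-down and 0.159 in the control libraries. Knockdown 2, 3, 4 and 5 lay above all controls, and knockdown 1 and 6 lay below all of them. The exact permutation test over libraries gave p = 0.193, and edgeR without the low-count filter a log2 fold change of 5.25 (edgeR adjusted p = 0.449).

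WT1, the zinc finger factor of kidney and gonad, had 7, 3, 3, 216, 11 and 7 counts in knockdown 1 to 6 and 0, 1, 8, 7, 6 and 10 counts in control 1 to 6 (exact permutation p = 0.281). Without the low-count filter its log2 fold change was 2.98 (edgeR adjusted p = 0.530). Without knockdown 4 the groups covered about the same range, 3 to 11 counts in knock-down and 0 to 10 in control. WT1-AS, which covers 2.75% of its exon bases on the opposite strand, had 29 counts in knockdown 4 and at most 1 in any other library. IRX3 had 10, 2, 8, 81, 9 and 6 counts in knockdown 1 to 6 and 7, 2, 3, 11, 26 and 25 counts in control 1 to 6 (exact permutation p = 0.848). Its neighbour IRX5 had 49 counts and EN1 24 counts in knockdown 4, both their highest values. The highest control values were not far below, at 34 counts for IRX5 in control 5 and 21 counts for EN1 in control 6. These genes were picked after their values were seen. RNF2 itself was at 12.8 CPM in knockdown 4 and 12.4 CPM in knockdown 3, and at 16.29 to 23.35 CPM in the other knock-down libraries. A link between the RNF2 level and these counts was not tested. The part of host cells or of anything else particular to knockdown 4 in these counts was not tested either.

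The starts of OTX2 and WT1 are shown because these are the factors far above 1 CPM in a single knock-down library and near 0 in the controls. OTX2 lies at chr14:56799905-56810479 and WT1 at chr11:32387775-32435630 (hg38, both minus strand). The 250 bases before the RefSeq starts are chr14:56810480-56810729 and chr11:32435540-32435789 (GRCh38.p14, minus strand), with CG dinucleotides in capitals. The RefSeq start of WT1 lies inside the counted span of the gene, so the WT1 window partly overlaps that span.
OTX2: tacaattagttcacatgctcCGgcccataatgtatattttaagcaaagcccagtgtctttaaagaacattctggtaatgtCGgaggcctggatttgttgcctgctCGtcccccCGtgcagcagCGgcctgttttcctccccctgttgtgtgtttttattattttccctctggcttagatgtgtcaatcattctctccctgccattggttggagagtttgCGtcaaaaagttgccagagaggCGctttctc
WT1: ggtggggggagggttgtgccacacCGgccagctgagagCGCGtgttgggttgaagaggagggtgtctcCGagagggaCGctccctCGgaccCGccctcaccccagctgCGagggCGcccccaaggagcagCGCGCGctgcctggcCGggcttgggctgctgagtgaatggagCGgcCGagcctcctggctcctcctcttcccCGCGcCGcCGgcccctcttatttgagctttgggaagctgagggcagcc
OTX2 has 7 CG dinucleotides there, and 25.6% of coding promoters hold fewer; WT1 has 19, and 54.0% hold fewer. The repeat GGAAGGAA, of the kind the EWSR1-FLI1 fusion binds, was searched on both strands and is in neither window nor in that of EVX2, DLX1 or DLX2, and 3.13% of coding promoters hold it. Only 37 of the 51 factors were in the promoter table, so a comparison of promoters over the whole group is void.

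Among the 10 silent factors, those with the largest mean in knock-down were IRX2, TBX5 of heart and forelimb, and ZIC1. IRX2 had 0, 2, 0, 10, 0 and 0 counts in knockdown 1 to 6 and 1, 0, 2, 1, 3 and 2 counts in control 1 to 6. TBX5 had at most 4 counts in knock-down and at most 1 in control, and ZIC1 at most 3 in knock-down and at most 2 in control. None of these knock-down counts exceeded 10.

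The DLX factors of branchial arches, limb and forebrain interneurons lie in convergent pairs, and 2 such pairs are among the 51. DLX1 (chr2:172084740-172089677, plus strand) and DLX2 (chr2:172099439-172102900, minus strand) are 9762 bases apart, and DLX5 (chr7:97020392-97024950, minus strand) and DLX6 (chr7:97005548-97011039, plus strand) are 9353 bases apart. The 250 bases before the RefSeq starts of DLX1 (chr2:172085257-172085506, plus strand) and DLX2 (chr2:172102901-172103150, minus strand, both GRCh38.p14) are shown because they correlated more closely than the other pair. CG dinucleotides are in capitals. The DLX1 window comes before the RefSeq start but lies inside the counted span of the gene given above, past its counted start.
DLX1: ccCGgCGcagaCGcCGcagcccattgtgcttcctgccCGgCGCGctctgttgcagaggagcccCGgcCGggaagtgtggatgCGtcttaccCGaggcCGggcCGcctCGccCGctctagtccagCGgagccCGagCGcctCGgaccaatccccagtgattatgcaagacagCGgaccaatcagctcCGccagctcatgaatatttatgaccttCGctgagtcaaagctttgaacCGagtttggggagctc
DLX2: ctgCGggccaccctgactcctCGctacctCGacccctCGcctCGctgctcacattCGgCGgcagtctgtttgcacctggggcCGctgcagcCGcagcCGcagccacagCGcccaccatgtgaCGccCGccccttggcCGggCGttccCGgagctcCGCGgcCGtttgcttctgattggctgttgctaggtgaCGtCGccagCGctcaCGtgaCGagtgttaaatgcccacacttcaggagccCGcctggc
DLX1 has 23 and DLX2 has 25 of them, and 66.2% and 71.9% of coding promoters hold fewer.

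DLX1 varied more than any other factor that was on in control, with a 7.83-fold range over the 12 libraries. It was at 1.75, 4.45 and 13.7 CPM (lowest, median, highest) in knock-down and at 2.65, 7.07 and 10.2 CPM in control (log2 fold change −0.22, SE 0.419, edgeR adjusted p = 0.869). DLX2 was at 5.24, 10.1 and 23.0 CPM in knock-down and at 6.59, 12.5 and 18.6 CPM in control (log2 fold change −0.26, SE 0.335, edgeR adjusted p = 0.789). Both were lowest in knockdown 3 and highest in knockdown 4, so the knock-down group held both extremes.

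Over the 12 libraries log2 CPM of DLX1 and DLX2 correlated with Pearson r 0.82 (permutation p = 0.00125, adjusted over 2 pairs 0.0025) and Spearman rho 0.811 (permutation p = 0.00223, adjusted 0.00446). With group means removed r was 0.811, and without knockdown 3 and knockdown 4, the libraries farthest from the median, it was 0.658 (permutation p = 0.0371). Library depth and tumour make-up are shared by the points, and 4 title numbers are on 2 libraries each, so the libraries may not be independent.

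DLX5 was at 24.3, 30.7 and 46.9 CPM (lowest, median, highest) in knock-down and at 22.5, 35.7 and 38.5 CPM in control (log2 fold change −0.01, SE 0.178, edgeR adjusted p = 0.992). DLX6 was at 9.51, 14.0 and 20.0 CPM in knock-down and at 14.2, 16.2 and 19.8 CPM in control (log2 fold change −0.22, SE 0.160, edgeR adjusted p = 0.599). Their log2 CPM correlated with Pearson r 0.647 (permutation p = 0.0211, adjusted 0.0211) and Spearman rho 0.699 (permutation p = 0.0144, adjusted 0.0144), and with group means removed r was 0.707. Without knockdown 2 and control 6, r was of similar size, at 0.595, and did not pass with the fewer libraries (permutation p = 0.0647).

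**Figure D4:**
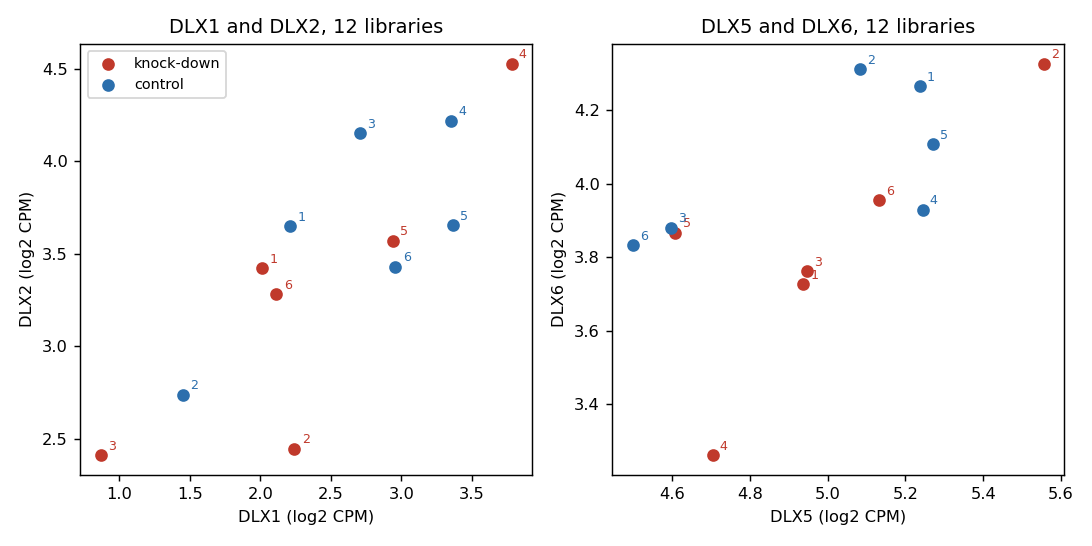
Each point is a library (numbered by replicate, red for knock-down, blue for control), with log2 CPM of one DLX gene on each axis, DLX1 and DLX2 on the left and DLX5 and DLX6 on the right. Knockdown 3 and knockdown 4 mark the low and high ends for DLX1 and DLX2 (r 0.82 over 12 libraries).

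Library to library range among the 29 factors on in control was close to that of other genes, with a median ratio of highest to lowest CPM of 2.13 against 1.91 for all 14147 tested genes at that level. A ratio of at least 3 was found in 7 of the 29 (24.1%), beside 18.3% of those genes. After DLX1 the widest were EVX2 (5.16), LHX9 (4.98), DLX2 (4.40), CDX2 (4.31), LHX1 (4.13) and NEUROD1 (3.22). CDX2 was at 2.55, 3.95 and 8.49 CPM (lowest, median, highest) in knock-down and at 1.97, 3.54 and 4.43 CPM in control, with its highest value in knockdown 4 (log2 fold change 0.60, edgeR adjusted p = 0.458). GATA3, a lymphoid and sympathetic factor, was at 18.5, 27.4 and 32.6 CPM in knock-down and at 16.4, 22.3 and 25.9 CPM in control (log2 fold change 0.31, edgeR adjusted p = 0.432). LHX1 was at 0.542, 0.915 and 1.48 CPM in knock-down and at 0.502, 1.63 and 2.07 CPM in control (log2 fold change −0.63, edgeR adjusted p = 0.488).

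Knockdown 4 was the highest library for 6 of the 32 tested factors (18.8%, beside 16.7% of all tested genes) and the lowest for 9 (28.1%, beside 15.8%). The 9 were NEUROD1, TBX3, LHX9, ISL1, MEIS2, FOXD3, ALX1, DLX6 and NEUROG2. LHX9 was at 1.15 CPM there and at 3.61 ± 1.54 CPM over all 6 knock-down libraries, against 3.74 ± 0.651 CPM in control (SD, n = 6 each).

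The Polycomb machinery was transcribed in both groups. Of 26 core subunits all were tested, 13 were positive and 13 negative, and RNF2 was the only one called. The next smallest p values were those of PCGF2, a subunit of canonical complex 1 (log2 fold change 0.27, edgeR adjusted p = 0.281), and of PHC3, a polyhomeotic subunit (−0.38, edgeR adjusted p = 0.358). RING1, also in this list, was at 58.8 ± 2.13 CPM in knock-down and 60.5 ± 6.67 CPM in control (SD, n = 6 each). Whether RING1 made up for lower RNF2 was not tested. Of 7 genes whose products remove the marks on lysine 27 or on H2A, or assist in it, 2 were positive and 5 negative with 0 called by edgeR and 0 at an unadjusted p below 0.05. The smallest p values were those of ASXL2 (log2 fold change −0.33, edgeR adjusted p = 0.409), KDM6B, a demethylase of lysine 27 (0.35, edgeR adjusted p = 0.431), and ASXL1 (−0.24, edgeR adjusted p = 0.548).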

How the data were processed

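Per the labels' protocols, RNA came from an RNeasy extraction and libraries from the TruSeq stranded mRNA kit. The authors deposited raw read counts per gene with exon coordinates and a gene length in bases. The submitters' processing notes name hg38, FastQC, featureCounts, STAR 2.6.0a, R 3.6.0 and limma 3.40.2. How strand, multiply aligned reads and host reads were handled is not given in the sources used here. Libraries were grouped by the labels' genotype and numbered in accession order. Titles hold 8 numbers, 4 of them on 2 libraries each, whose meaning the labels do not give, so p-values reflect only spread among these libraries, which may be technical. The table held no other column of counts.

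The counts were tested in R 4.3.3 with edgeR 4.0.16 (filterByExpr, trimmed mean of M values factors, robust quasi-likelihood F test, Benjamini-Hochberg adjustment, threshold 0.05), which kept 16519 genes. CPM are scaled by the same factors, log2 CPM have a prior count of 2, and RPKM are CPM per kilobase of exon. The edgeR procedure was tested on simulated data. For single genes under the filter, a two-sided exact permutation test used all 924 divisions of the libraries (smallest p 0.00216), and correlations used 100000 permutations. Alternatives were other scaling factors and filters, DESeq2 1.42.0, limma-voom (limma 3.58.1), the title letter or host marker mean as a covariate, the title number summed or as a random effect, each library left out, and control 6, knockdown 4 and knockdown 5 left out together. Leaving libraries out of the count of silent or low genes, and medians there, were chosen after seeing the data. Coordinates are those of the deposited table (hg38). Promoter sequences are from RefSeq (GRCh38.p14).

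The 51 factors and the gene lists were chosen with earlier results of these data known. Full statistics were given for called factors, those with an unadjusted p below 0.05, the 5 highest, and the 3 silent ones with the largest knock-down mean. Values are given for others named after they were seen. Of the Polycomb and eraser lists, the called genes, the 3 with the smallest p and RING1 were named. Intervals are at 95%, and a floor of 3 counts covers counting error only.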

Additional observations from a re-analysis of the deposited data

Results flagged for a closer look

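In 76 groups of 6 libraries looked at, 7 held a library whose gap to the next, divided by the range of log2 CPM in its group, passed Dixon's critical value; chance gives about 1 in 20 groups. In knockdown 4, IRX1 (ratio 0.76), WT1 (0.731) and IRX3 (0.653) were the highest of their group by such a gap, and NEUROD1 (0.641) was the lowest. For IRX1 the value in knockdown 4 was only 9 counts, and control 6 held 12. In control 6, LHX1 (0.71) and TBX3 (0.645) were the lowest. In control 3, MEIS2 (0.661) was the lowest.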

How the results depend on the processing

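The count of 0 called factors held in 23 of 24 alternatives and was 1 (EVX2) with the host marker mean as a covariate, where edgeR called 365 genes in all. The count at an unadjusted edgeR p below 0.05, 5 of 32 with all libraries, was 7 of 47 with no low-count filter (OTX2 and WT1 added). It was 8 of 32 with that covariate and 9 of 32 without control 6, knockdown 4 and knockdown 5. With each library left out it was 4 to 7 of 32 or 33. The share of all tested genes was not computed for these alternatives, so a higher count is not a result about the factors. GATA2 had a log2 fold change of −0.00982 by limma-voom, −0.0336 with the title letter, −0.0121 with the host marker mean and −0.0221 with the title number as a random effect. With each library left out, GATA2 lay between −0.136 and 0.138 and ZIC2 between −0.0749 and 0.223. Positive and negative factors numbered 24 and 10 after counts were summed by title number, and 15 and 17 with the title letter. The 12 silent or low factors with a higher mean in knock-down became 7 without control 6, knockdown 4 and knockdown 5, 10 by medians and 8 to 11 with each library left out. The r of DLX5 and DLX6 was 0.595 without its 2 farthest libraries. The cause of these shifts was not tested. No paired analysis was possible because the groups share no title number and replicates were numbered in accession order. Depth limits the 10 silent factors, whose levels under about 0.127 CPM could not be resolved.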
